A study of Homo sapiens with 12 samples.

Results

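Broad H3K4me3 domains are unusually long stretches of chromatin carrying trimethylated lysine 4 of histone H3. The deposited H3K4me3 regions of SW620 and SW480 were merged into 19288 union regions wherever they overlapped by at least 1 bp. A union region was kept as a domain when it held at least 1 single region of 5000 bp or wider in either list. This gave 488 domains, 2.53% of the union, with 18800 regions remaining. H3K4me3 widths chose the domains, so their widths are described here and support no comparison with narrower regions.

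The series profiled histone marks and the forkhead factor FOXA2 by chromatin immunoprecipitation and sequencing (ChIP-seq) in 2 human colorectal adenocarcinoma cell lines. SW620 is labelled Dukes' type C and SW480 Dukes' type B, a staging of the tumour. Both are established lines, grown untreated in DMEM with fetal bovine serum and antibiotics. Each line gave 1 library for each of 5 antibodies, against H3K4me3, H3K4me2, H3K27ac, H3K36me3 and FOXA2, and 1 input library that entered only the authors' region calling. The lines were thus compared without replicates, no test between them was possible, and a difference cannot be told apart from one between 2 libraries of the same line. Intervals are 95% Wilson intervals of shares. They cover counting error only, and neighbouring domains are not independent.

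H3K4me3 is laid down at promoters by the SET1 and MLL family of methyltransferases, mostly around the starts of genes with CpG-rich promoters. Most promoters carry a narrow patch of it on the nucleosomes flanking the start, while in a minority the mark runs far into the gene body. Such wide domains are known from other studies at genes of cell identity and, in normal tissues, at tumour suppressor genes. H3K4me2 flanks and underlies H3K4me3 and also marks enhancers, H3K27ac goes with activity at either kind of element, and H3K36me3 is deposited along transcribed gene bodies behind elongating RNA polymerase II.

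The H3K4me3 libraries differed in depth and enrichment. SW620 had 12791745 tags, 52.0% of them in regions, and SW480 had 16400013 tags with 73.0% in regions. The lists held 16315 regions in SW620, of which 320 were 5000 bp or wider, and 18296 in SW480, of which 363 were. Median widths of all regions were 2103 bp in SW620 and 2083 bp in SW480. The H3K27ac libraries had 47867295 tags with 27.5% in regions in SW620 and 34224728 tags with 58.5% in regions in SW480. The part of depth and enrichment in the differences below was not tested.

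Most domains were broad in only one of the lines, and their widths in the other line ranged from none to just under the threshold. A region of 5000 bp or wider was called in both lines at 186 domains, in SW620 alone at 128 and in SW480 alone at 174. The 128 domains that were broad in SW620 alone had a median width of 3991 bp in SW480, and 63 of them reached 4000 bp there. The 174 domains that were broad in SW480 alone had a median width of 3857 bp in SW620, and 79 of them reached 4000 bp. The threshold therefore also divided domains whose widths in the lines were close.

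The widest single region of a domain had a median of 5202 bp in SW620, with quartiles of 4400 and 6109.5 bp, and a median of 5377 bp in SW480, with quartiles of 4944.5 and 6058 bp. Very wide domains were few. In the wider line, 298 domains (61.1%) were under 6000 bp, 53 reached 8000 bp and 17 reached 10000 bp. Just above the threshold stood domains of 5001, 5003 and 5005 bp, and just below it union regions of 4997, 4997 and 4989 bp. One continuous region in each line made up 407 domains. In 35 domains SW480 had 1 region where SW620 had several, in 23 SW620 had 1 region where SW480 had several, and in 9 both lines had several.

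Of the 474 domains with a region in both lines, 64 were at least 1.5-fold wider in SW620, 78 were at least 1.5-fold wider in SW480 and 332 lay within 1.5-fold. Over all union regions with a region in both lines the same limits were passed by 2.49% towards SW620 and 6.97% towards SW480. A single wide region in one line was enough to enter the set, so the domains' counts are not read against these shares. Of the 64, 22 were divided into 2 or more regions in SW480, and of the 78, 27 were so divided in SW620. By total H3K4me3-covered length in place of the widest region, 45 domains were wider in SW620 and 54 in SW480. The classes used below rest on the widest region and so depend partly on how regions were joined. The median log2 ratio of widths, SW620 over SW480, was -0.04 for domains and -0.04 for the remaining regions. Its 10th and 90th percentiles were -0.86 and 0.80 for domains and -0.49 and 0.30 for the remaining regions. Choosing domains by their wider line can itself spread the ratios, so these percentiles are not compared either. A further 3 domains had no H3K4me3 region in SW480 and 11 had none in SW620, where 5.75% and 16.1% of all union regions had none.

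**Figure D1:**
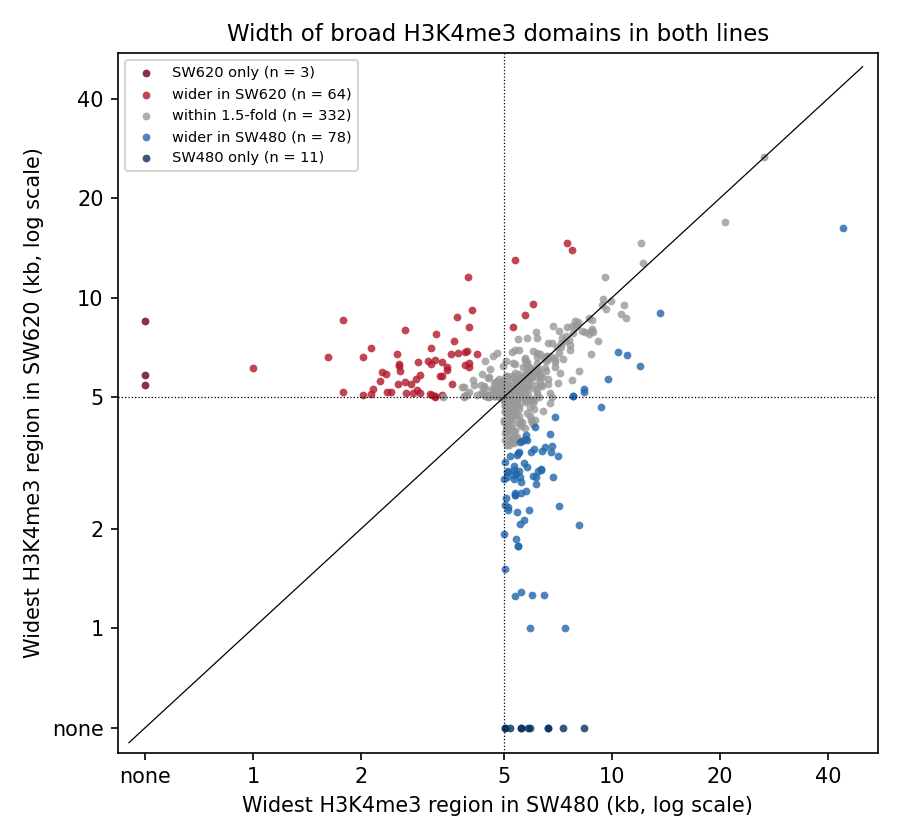
Widest single H3K4me3 region of each of the 488 domains in SW620 (vertical axis, kb, log scale) and SW480 (horizontal axis, kb, log scale). Each point is a domain, coloured by its class of width difference, dotted lines mark 5 kb, the diagonal marks equal width, and "none" marks the 3 and 11 domains without a region in one line. The lower left square below 5 kb in both lines is empty because of how domains were chosen.

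The widest domains are given by hg19 coordinates. The widest of all lay on chromosome 17, from 46651693 to 46697698. Its widest single region was 16271 bp in SW620, where the domain was divided into 4 regions, and 44109 bp in SW480, where it was 1 region. In SW620 it held 1 H3K4me2 region and 2 H3K27ac regions. H3K4me2 covered 99.2% of the domain in SW620 and 100% in SW480, and H3K27ac covered 96.8% in SW620 and 98.3% in SW480. By total H3K4me3-covered length the log2 ratio of this domain was -0.21, against -1.44 by widest region, so the lines were closer when the gaps were left out of account.

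The next widest domain, on chromosome 7 from 27187250 to 27219570, was nearly equal in the lines, with 26555 bp in SW620 and 26549 bp in SW480. It held almost no H3K36me3, which covered 3.10% of it in SW620 and none in SW480. A domain on chromosome 1, from 43409388 to 43430016, was 16923 bp wide in SW620 and 20629 bp in SW480. Here H3K36me3 covered 67.1% in SW620 and 68.6% in SW480, on top of H3K4me2 and H3K27ac that covered all of it or nearly all. On chromosome 8, from 145004518 to 145028334, 3 regions in each line made up a domain whose widest region was 14647 bp in SW620 and 12031 bp in SW480. A domain on chromosome 7 from 5457815 to 5470525 measured 12711 bp in SW620 and 12225 bp in SW480, with 1.53% H3K36me3 cover in SW620 and none in SW480. Very wide domains thus occurred both with and without the mark of transcribed gene bodies.

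Other domains among the 10 widest differed between the lines in both directions. On chromosome 16, from 50581119 to 50594091, the domain was 12973 bp wide in SW620 and 5371 bp in SW480. H3K27ac followed it and covered 100% in SW620 and 49.2% in SW480, while H3K36me3 covered 89.7% in SW620 and 83.5% in SW480. A domain on the same chromosome, from 87891667 to 87904339, was 6209 bp wide in SW620 and 11953 bp in SW480, again with much H3K36me3 in either line, 81.3% in SW620 and 80.2% in SW480. At both places the H3K4me3 width differed while cover by H3K36me3 was close. On chromosome 17, from 79968188 to 79983157, the domain was 14633 bp wide in SW620 and 7499 bp in SW480, where it was divided into 2 regions. By total covered length its log2 ratio was 0.25, against 0.96 by widest region. The domain on chromosome 22 from 46465460 to 46484719 measured 13903 bp in SW620 and 7745 bp in SW480 by widest region, but its log2 ratio of 0.84 became -0.01 by total covered length.

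The largest ratios belonged to domains of moderate width that were reduced to a narrow region in the other line. Towards SW620 the first was on chromosome 9, from 133861671 to 133867779, with 6109 bp in SW620 and 1001 bp in SW480, a log2 ratio of 2.61. SW620 had 2 FOXA2 peaks in it and SW480 had none. The second, on chromosome 1 from 1364508 to 1373090, measured 8583 bp in SW620 and 1775 bp in SW480. The third, on chromosome 7 from 36323856 to 36331122, measured 6603 bp in SW620 and 1615 bp in SW480. It also held 2 SW620 FOXA2 peaks. In these 3 domains H3K27ac covered 98.1%, 100% and 100% in SW620 and 65.3%, 75.0% and 63.6% in SW480. At the fourth, on chromosome 3 from 149090207 to 149097257, it covered 100% in SW620 and 33.0% in SW480, and the widths were 7051 bp in SW620 and 2123 bp in SW480. The fifth, on chromosome 8 from 8744370 to 8752177, measured 6593 bp in SW620 and 2027 bp in SW480 but carried little H3K27ac in either line, with 33.3% cover in SW620 and 25.7% in SW480.

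Towards SW480 the first was on chromosome 12, from 4377529 to 4384909. It was 1001 bp wide in SW620, the smallest width in that list, and 7381 bp wide in SW480, a log2 ratio of -2.88. H3K4me2 still covered 84.8% of it in SW620 and 100% in SW480, whereas H3K27ac covered none of it in SW620 and 100% in SW480. A domain on chromosome 10, from 116282456 to 116288364, also measured 1001 bp in SW620, against 5909 bp in SW480, and had no H3K27ac in SW620 and 89.3% cover in SW480. On chromosome 9, from 140331238 to 140337722, the widths were 1255 bp in SW620 and 6485 bp in SW480. The neighbouring domain, 9.70 kb further on, also differed, with 2045 bp in SW620 and 8089 bp in SW480. The fourth, on chromosome 12 from 8121301 to 8127291, measured 1257 bp in SW620 and 5991 bp in SW480. H3K27ac covered 16.7% of it in SW620 and 87.1% in SW480. The fifth, on chromosome 17 from 39089454 to 39095026, differed less in H3K27ac, which covered 75.0% in SW620 and 97.8% in SW480, while the widths were 1283 bp in SW620 and 5573 bp in SW480.

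Among domains without H3K4me3 in one line, the widest in SW620 lay on chromosome 2, from 240212756 to 240221230, and was 8475 bp wide. H3K4me2 and H3K27ac each covered 100% of it in SW620, and 24.8% and 24.5% in SW480. The next domain to its left, 11.4 kb away, was 11529 bp wide in SW620 and 3961 bp in SW480. The other 2 lay on chromosome 17, from 56406991 to 56412837, with 5847 bp in SW620, and on chromosome 16, from 12993473 to 12998907, with 5435 bp in SW620. The one on chromosome 16 had no region of H3K4me2, H3K27ac or H3K36me3 in SW480. The widest SW480 domain without H3K4me3 in SW620 lay on chromosome 7, from 120953550 to 120961914, and was 8365 bp wide. H3K27ac covered none of it in SW620 and 77.2% in SW480, and H3K36me3 none in SW620 and 42.5% in SW480. The SW620 calls at this place were limited to H3K4me2, with 12.2% cover, against 100% in SW480. A domain on chromosome 3, from 55519127 to 55525763, was 6637 bp wide in SW480 and had H3K27ac over none of it in SW620 and 100% in SW480. One on chromosome 12, from 52911234 to 52917142, was 5909 bp wide in SW480 and kept more of the other marks, with H3K27ac over 54.4% in SW620 and 94.6% in SW480. The other 2 of the 5 widest are described with their neighbours on chromosome 17.

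H3K4me2 covered nearly all of the domains in both lines. The mean share of a domain's length under H3K4me2 was 89.6% ± 15.2 in SW620 and 92.1% ± 12.2 in SW480 (SD over the 488 domains, which are not replicates). In the remaining regions it was 84.2% in SW620 and 85.5% in SW480. That lower value came largely from regions under 2000 bp, with 78.9% in SW620 and 80.5% in SW480. Regions of 2 to 3 kb had 88.1% in SW620 and 89.4% in SW480, close to the domains. At least 1 H3K4me2 region was called in 486 domains in SW620 and 487 in SW480, where 95.3% and 95.7% of all union regions had one. Among regions of 2 to 3 kb, 99.2% in SW620 and 99.3% in SW480 had one. The widest H3K4me2 region on a domain was longer than its H3K4me3 region in 460 of 477 domains in SW620 (96.4%) and in 471 of 485 in SW480 (97.1%), much as at regions of 2 to 3 kb, with 97.8% in SW620 and 97.3% in SW480.

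H3K27ac covered less of the domains in SW620 than in SW480. Mean cover was 78.5% ± 24.5 in SW620 and 89.0% ± 15.7 in SW480, and in the remaining regions 59.2% in SW620 and 73.1% in SW480. The lower value of SW620 was thus present in both classes, beside an H3K27ac library with a lower share of tags in regions. Of the domains, 472 (96.7%, 94.7 to 98.0) carried H3K27ac in SW620 and 487 (99.8%, 98.8 to 99.96) in SW480, where 71.5% and 83.5% of all union regions did. Against regions of similar but smaller width the difference was small. Union regions of 4 to 5 kb had a mean cover of 77.3% in SW620 and 87.8% in SW480, and the low value of the remaining regions came largely from those under 2000 bp, with 36.6% in SW620 and 53.8% in SW480.

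H3K36me3 cover was higher in wider H3K4me3 regions. Its mean cover was 13.6% ± 19.8 in SW620 and 14.4% ± 18.8 in SW480, against 2.14% in SW620 and 2.42% in SW480 over the remaining regions. It was 1.82% in SW620 and 2.16% in SW480 at regions of at least 2 and under 3 kb, and 6.45% in SW620 and 7.60% in SW480 at regions of 4 to 5 kb. Among the domains it was 11.6% in SW620 and 12.8% in SW480 at 5 to 8 kb, and 29.3% in SW620 and 27.9% in SW480 at 8 kb or wider. An H3K36me3 region overlapped 226 domains in SW620 (46.3%, 41.9 to 50.7) and 253 in SW480 (51.8%, 47.4 to 56.2). Over all union regions these shares were 9.21% in SW620 and 11.2% in SW480. A long region meets others more often by its length, and its ends reach further into its surroundings; their part in the cover was not tested. In the central 1000 bp of domains H3K36me3 covered 8.09% in SW620 and 7.66% in SW480, against 1.05% and 0.992% in that of remaining regions. The medians over all domains were 0% in SW620 and 2.13% in SW480. In the 53 domains of 8000 bp or wider the medians were 29.2% in SW620 and 29.2% in SW480.

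**Figure D2:**
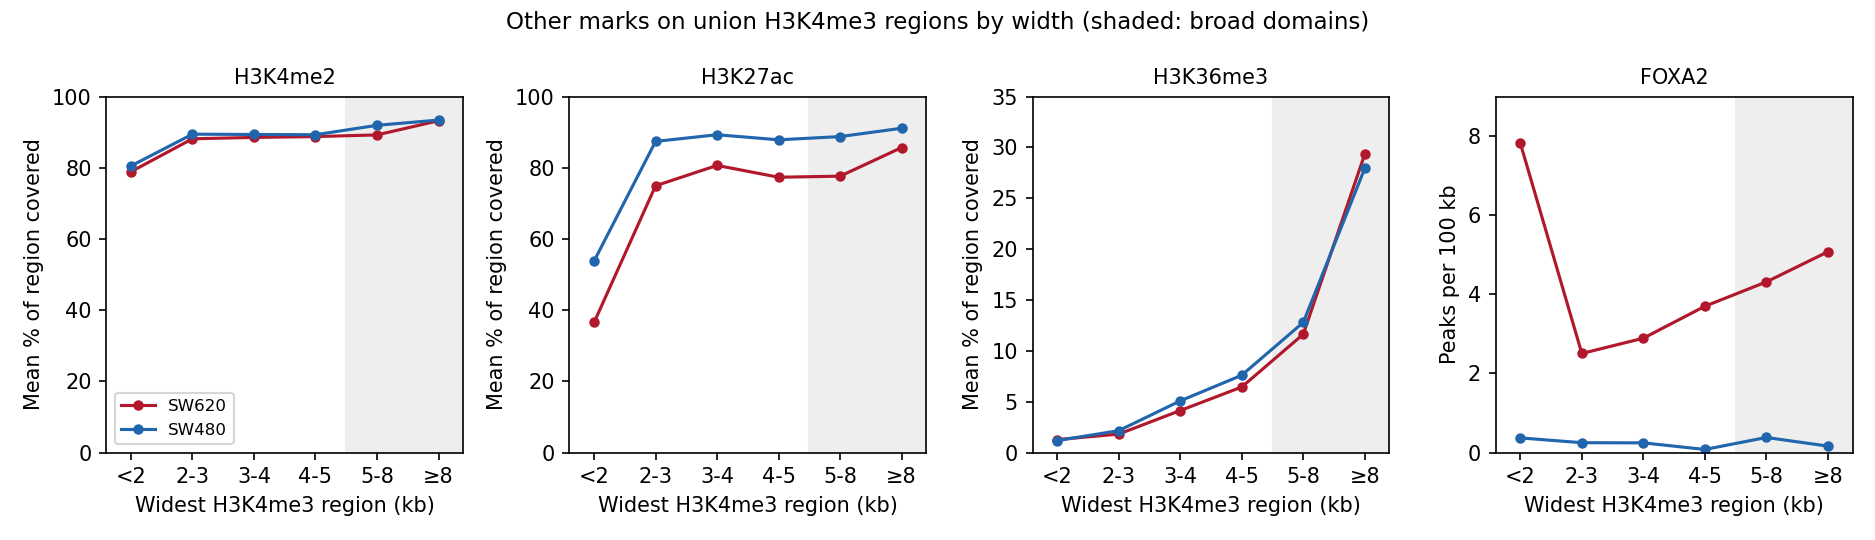
Other marks on union H3K4me3 regions grouped by the widest single H3K4me3 region (horizontal axis, kb), with SW620 in red and SW480 in blue. Points are the mean percent of region length covered by H3K4me2, H3K27ac and H3K36me3, and FOXA2 peaks per 100 kb of region, and grey shading marks the domains. H3K36me3 cover rose to 29.3% in SW620 and 27.9% in SW480 in the widest class, while most of the rise in H3K27ac cover lay between regions under 2 kb and regions of 2 to 3 kb.

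H3K36me3 also lay close to the domains' edges. Within 20 kb of an edge it was called at 387 domains in SW620 (79.3%, 75.5 to 82.7) and 415 in SW480 (85.0%, 81.6 to 87.9). Over all union regions the shares were 54.1% in SW620 and 57.2% in SW480, and in the remaining regions 53.4% in SW620 and 56.5% in SW480. The mark lay on 1 side alone at 238 domains in SW620 and 252 in SW480, on both sides at 149 and 163, and on neither side at 101 and 73. In the remaining regions the mark lay on 1 side alone at 35.8% in SW620 and 37.3% in SW480, on both sides at 17.6% and 19.2%, and on neither at 46.6% and 43.5%. Of regions with H3K36me3 on any side, 61.5% of domains (56.6 to 66.2) and 67.1% of remaining regions had it on 1 side alone in SW620, and 60.7% of domains (55.9 to 65.3) and 66.1% of remaining regions in SW480.

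Across the edge, the marks behaved differently. In the 1 kb just inside an edge H3K36me3 covered 19.6% in SW620 and 21.6% in SW480, and between 2 and 3 kb outside it covered 27.1% in SW620 and 30.1% in SW480. At regions of 2 to 3 kb the same bins held 2.19% and 15.7% in SW620 and 2.66% and 17.7% in SW480. H3K36me3 therefore overlapped the ends of domains, while at narrow regions it began outside. Farther away, at 10 to 20 kb, the values were closer, with 20.9% in SW620 and 23.1% in SW480 around domains, and 17.7% in SW620 and 17.9% in SW480 around narrow regions. H3K27ac fell to 16.9% in SW620 and 16.4% in SW480 at 2 to 3 kb outside a domain, still above the 4.55% in SW620 and 5.19% in SW480 at narrow regions. It was also higher farther away. At 10 to 20 kb it covered 12.4% in SW620 and 13.3% in SW480 around domains. Around narrow regions it covered 5.33% in SW620 and 6.08% in SW480.

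**Figure D3:**
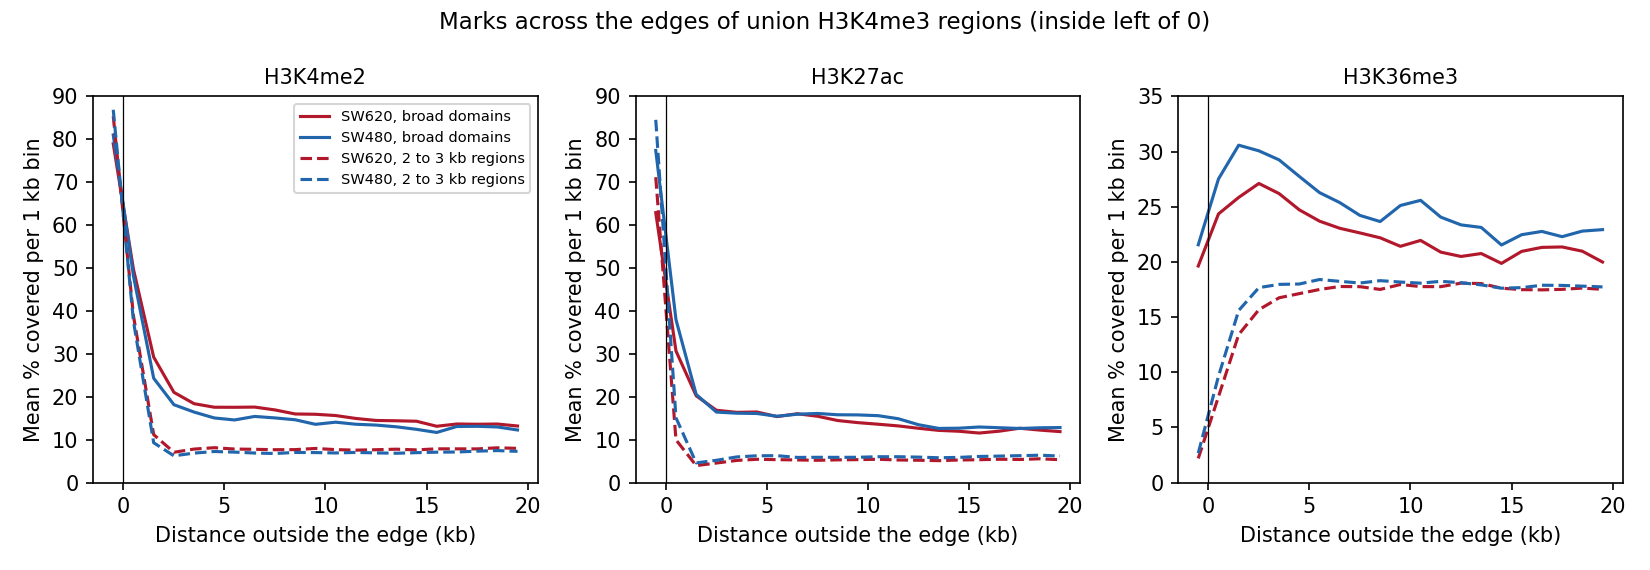
Mean percent of each 1 kb bin covered by H3K4me2, H3K27ac and H3K36me3 (vertical axes) by distance outside the edge of a union H3K4me3 region (horizontal axis, kb, inside left of 0), averaged over both edges. Solid lines are the 488 domains and dashed lines the 6899 regions of 2 to 3 kb, with SW620 in red and SW480 in blue. H3K36me3 is present inside the edge of domains and nearly absent inside that of narrow regions.

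The direction of extra width was compared with the side of H3K36me3 at domains formed by 1 region in each line. Where SW620 was the wider line and its H3K36me3 lay on 1 side alone, the longer extension pointed to that side at 59 of 93 domains (63.4%, 53.3 to 72.5). Where SW480 was the wider line it did so at 83 of 126 domains (65.9%, 57.2 to 73.6). Among domains at least 1.5-fold wider the counts were 14 of 19 in SW620 (73.7%, 51.2 to 88.2) and 25 of 32 in SW480 (78.1%, 61.2 to 89.0). Among the remaining regions the longer extension pointed to the H3K36me3 side at 1085 of 2545 where SW620 was wider (42.6%, 40.7 to 44.6) and at 2024 of 3484 where SW480 was wider (58.1%, 56.4 to 59.7). Among those at least 1.5-fold wider it did so at 72 of 136 in SW620 (52.9%, 44.6 to 61.1) and at 172 of 309 in SW480 (55.7%, 50.1 to 61.1). The shares were higher at domains in both lines, but the widths that chose the domains also set these extensions. They are therefore not read as a difference between domains and remaining regions. The share of remaining regions also differed by line, with 42.6% where SW620 was wider and 58.1% where SW480 was. The intervals of domains and remaining regions overlapped where SW480 was wider by any amount and where SW620 was at least 1.5-fold wider, and no test of these differences was made.

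H3K27ac cover differed between the lines in the direction of the H3K4me3 width. At the 64 domains wider in SW620, mean H3K27ac cover was 88.0% in SW620 and 69.4% in SW480, a mean difference of 18.5 percentage points, and 49 of the 64 had more in SW620. At the 78 domains wider in SW480 it was 53.7% in SW620 and 94.5% in SW480, a difference of -40.8 points, and 72 of the 78 had more in SW480. Even the 332 domains within 1.5-fold had less in SW620, with 84.1% in SW620 and 91.9% in SW480. The 3 domains without H3K4me3 in SW480 had 96.9% cover in SW620 and 10.3% in SW480, and the 11 without it in SW620 had 25.4% in SW620 and 97.4% in SW480. Counted over all domains, H3K27ac cover was at least 20 points higher in SW620 at 36 and at least 20 points higher in SW480 at 119. Over all union regions 6.38% passed this limit towards SW620 and 26.9% towards SW480. The counts by width class were not set beside the same classes of remaining regions. They describe the domains and are not read as particular to them.

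In percentage points, H3K4me2 had a smaller mean difference of the same direction, and H3K36me3, which covered far less, a smaller one still. At domains wider in SW620, H3K4me2 covered 93.7% in SW620 and 78.7% in SW480, and at domains wider in SW480 it covered 80.5% in SW620 and 95.9% in SW480. H3K36me3 covered 17.3% in SW620 and 13.0% in SW480 at the 64 domains wider in SW620, and 7.93% in SW620 and 15.2% in SW480 at the 78 wider in SW480. Its median difference was 0 points in either class. All these differences varied widely from domain to domain. At domains wider in SW620 the mean differences, with their SD over domains, were 18.5 ± 22.3 points for H3K27ac, 15.0 ± 19.7 for H3K4me2 and 4.25 ± 19.1 for H3K36me3. At domains wider in SW480 they were -40.8 ± 31.5, -15.4 ± 17.8 and -7.30 ± 16.2 points, and the mean exceeded the SD for H3K27ac in this class alone.

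**Figure D4:**
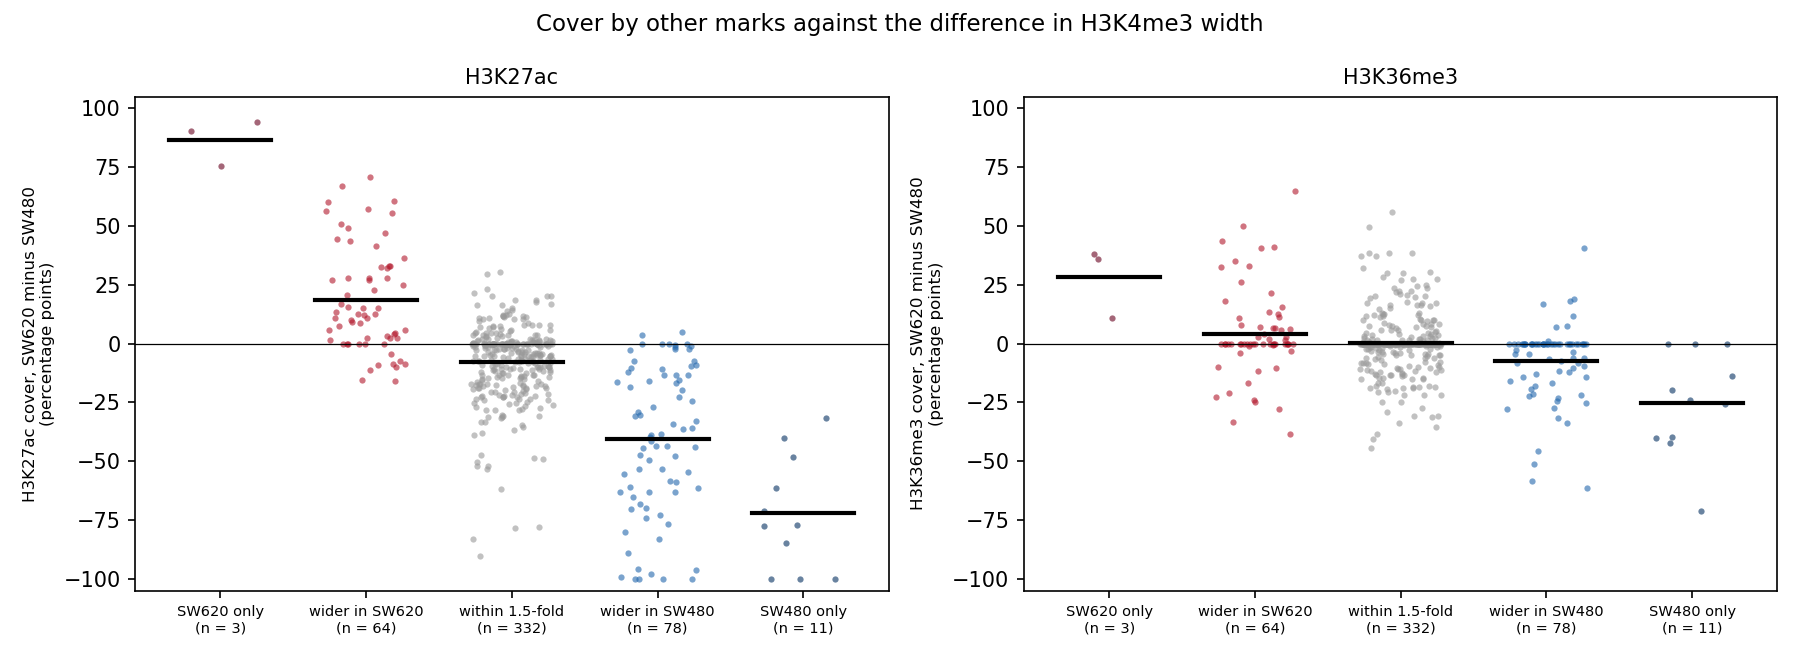
Cover by H3K27ac (left) and H3K36me3 (right) in SW620 minus SW480, in percentage points, for each domain (points, spread sideways for visibility) by class of H3K4me3 width difference, with the class mean as a bar. The H3K27ac means run from 86.6 points at the 3 domains without H3K4me3 in SW480 to -72.1 points at the 11 without it in SW620.

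H3K27ac differed in the same direction at the level of sequence within the domains. H3K4me3 covered 385 kb of domain sequence in SW620 alone, 510 kb in SW480 alone and 2336 kb in both. On the sequence with H3K4me3 in SW620 alone, H3K27ac covered 75.5% in SW620 and 48.6% in SW480. On that with H3K4me3 in SW480 alone, it covered 38.2% in SW620 and 86.1% in SW480. On the shared sequence the values were 89.2% in SW620 and 96.7% in SW480. For H3K4me2 the line without H3K4me3 kept more cover. It was 85.7% in SW620 and 62.9% in SW480 on the SW620-alone sequence, and 66.4% in SW620 and 89.6% in SW480 on the SW480-alone sequence. Pooled over the domains, sequence without H3K4me3 in a line thus still carried H3K4me2 there over most of its length. This did not hold for domains without any H3K4me3 region in a line. Mean H3K4me2 cover was 12.6% in SW480 at the 3 without H3K4me3 there. It was 33.1% in SW620 at the 11 without H3K4me3 there.

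H3K27ac was missing from 16 domains in SW620 and from 1 in SW480, and no domain lacked it in both lines. Over all union regions 28.5% had none in SW620 and 16.5% none in SW480, and the share with none in both lines is not given. Of the 16, 13 were at least 1.5-fold wider in SW480 or had no H3K4me3 in SW620, and 12 still had an H3K4me3 region in SW620. These counts have no share over all union regions beside them and are given as a description. The widest of the 16 with H3K4me3 of similar width in the lines lay on chromosome 18, from 74201650 to 74209471. It was 5489 bp wide in SW620 and 6633 bp in SW480, H3K4me2 covered 83.1% in SW620 and 86.0% in SW480, and H3K27ac covered none in SW620 and 78.3% in SW480. On chromosome 7, from 155299112 to 155306210, the widths were 2347 bp in SW620 and 7099 bp in SW480, with H3K27ac over none of it in SW620 and 100% in SW480.

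FOXA2, a pioneer factor of endoderm and liver, had peaks in 123 domains in SW620 (25.2%, 21.6 to 29.2) and in 10 in SW480 (2.05%, 1.12 to 3.73). Over all union regions 9.76% held a peak in SW620 and 0.653% in SW480. The SW620 list was longer, with 12372 peaks, against 5207 in SW480. The FOXA2 libraries also differed in the share of tags within peaks. It was 2.25% of 18036456 tags for SW620, against 0.59% of 19473583 tags for SW480. SW620 peaks had a median width of 319 bp, those of SW480 one of 127 bp. How far these differences account for the FOXA2 counts was not tested. With the first-listed 5207 peaks of each line the shares of domains were 12.3% in SW620 and 2.05% in SW480. Whether the lists are ordered by peak strength was not checked, so this evens out the number of peaks alone. Per length, domains and remaining regions were closer. Domains held 4.46 SW620 peaks per 100 kb, where the remaining regions held 4.15, and 0.340 SW480 peaks per 100 kb, where the remaining regions held 0.267.

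The SW620 density was lowest at regions of 2 to 3 kb. It was 7.82 peaks per 100 kb in regions under 2000 bp, 2.50 at 2 to 3 kb, 2.89 at 3 to 4 kb, 3.70 at 4 to 5 kb, 4.31 at 5 to 8 kb and 5.08 at 8 kb or wider, the last from 31 peaks. Most domains with a peak had 1. In SW620, 104 domains had 1 peak, 18 had 2 and 1 had 4. The domain with 4 lay on chromosome 15, from 70384259 to 70393907, and had no SW480 peak. It was 9231 bp wide in SW620 and 9649 bp in SW480. Its H3K27ac cover was 56.3% in SW620 and 79.9% in SW480. The widest domains with 2 SW620 peaks were those on chromosome 1 from 43409388 and on chromosome 7 from 5457815, followed by one on chromosome 7 from 552934 to 564466 and one on chromosome 2 from 171566466 to 171577082. The last 2 were 11533 and 8953 bp wide in SW620 and 9563 and 10617 bp wide in SW480. Within the outer 25% of a domain's length at either end lay 71 of 141 SW620 peak centres and 5 of 11 SW480 peak centres, close to the share of length that these ends make up.

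FOXA2 peaks of SW620 were found in every class of width difference. They lay in 22 of the 64 domains wider in SW620, 84 of the 332 within 1.5-fold and 14 of the 78 wider in SW480. They also lay in 2 of the 3 domains without H3K4me3 in SW480 and 1 of the 11 without it in SW620. SW480 peaks lay in 1, 7 and 2 domains of the first 3 classes and in none of the others.

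Some domains lay next to each other. There were 27 pairs less than 30 kb apart, which involved 52 domains. In 8 pairs both domains differed by 1.5-fold or were missing in a line, and in 7 of the 8 they did so towards the same line. The pairs were not all separate, since pairs on chromosome 17 had a domain in common. No share over neighbouring union regions was computed beside this count, so it is given as a description. On chromosome 7, domains from 150064304 to 150071068 and from 150075101 to 150083928 measured 6765 and 7991 bp in SW620 and 2517 and 2655 bp in SW480. On chromosome 17, a group of 3 was reduced in SW620. The domains from 63503962 to 63511256 and from 63530705 to 63537345 had no H3K4me3 in SW620 and were 7295 and 6641 bp wide in SW480. The third, from 63544874 to 63558925, was 9013 bp wide in SW620 and 13619 bp in SW480. H3K36me3 covered the whole of the middle domain in both lines, although H3K4me3 was called there in SW480 alone.

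**Figure D5:**
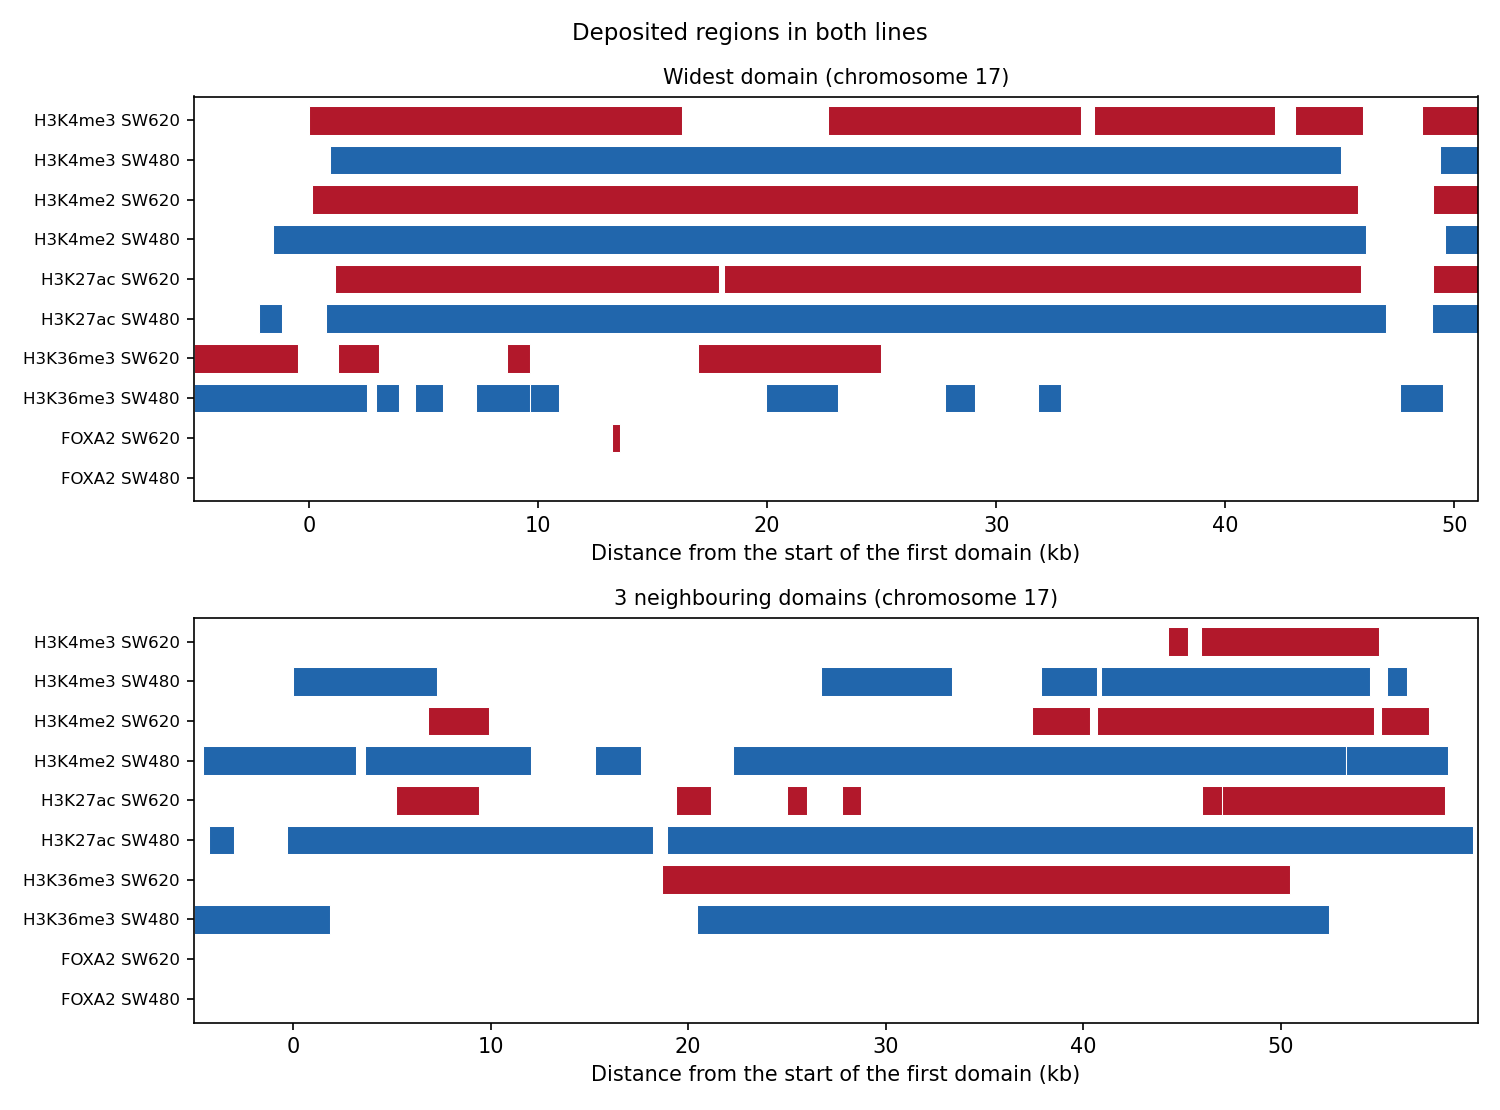
Deposited regions of each antibody along the widest domain (top) and along the group of 3 neighbouring domains on chromosome 17 (bottom), with SW620 in red above SW480 in blue. The horizontal axis is the distance in kb from the start of the first domain. In the top map SW620 has 4 H3K4me3 regions on the domain, 1 of H3K4me2 and 2 of H3K27ac. H3K36me3 of both lines spans the middle domain in the bottom map.

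By chromosome, domains made up between 1.55% of union regions on chromosome 4 (11 of 709, 0.868 to 2.76) and 4.24% on chromosome 17 (48 of 1131, 3.22 to 5.58), leaving aside chromosome Y with 3 union regions and no domain.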

How the data were processed

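ChIP-seq libraries were analysed from the authors' deposited region lists, with each sample's group taken from its title. Per the file headers, HOMER findPeaks called the regions of each library over that line's input. Histone marks used the histone style, a size of 1000 bp, minimum 4-fold enrichment and a false discovery rate of 0.001, and FOXA2 the factor style with 2-fold enrichment. Coordinates are hg19 per the submitters' processing notes, and the aligner was not given in the sources used here. The deposited values used were start and end positions in bp. The deposited score was 1 in every line of the 10 lists and was not used.

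Lists were merged and intersected in Python 3.11.15 with numpy 2.4.6 and pandas 2.3.3, checked against bedtools 2.31.1 and tested on 2000 simulated regions, of which 100% were recovered. Shares carry Wilson intervals from scipy 1.17.1, and figures were drawn with matplotlib 3.10.9. Total tags per library, from the file headers, lay between 12791745 and 47867295. Depth limits which regions pass the caller, and region edges carry no error.

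The domains and comparisons were chosen with earlier results of these data known. Individual domains were named by rule: the 10 widest; the 5 with the largest ratio of widths per direction; the 5 widest without H3K4me3 in the other line; the 5 with most SW620 FOXA2 peaks; the 5 widest lacking H3K27ac in a line; and 3 on either side of the width threshold. Neighbours of these and pairs of domains were chosen after their values were seen. Regions are named by coordinates, counted from 1, because the gene and promoter tables at hand are on GRCh38. Genes, gene lists, cell type markers and sequences were not analysed here.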

Additional observations from a re-analysis of the deposited data

How the results depend on the processing

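No paired analysis was possible because each line had 1 library per antibody. Of 73 alternative values of the main answers, 42 stayed within the limit set for them and 31 moved. The limit was 1.5 times for counts and the counting interval of a share of domains for percentages. Mean covers are not such shares, so for them this interval is only a yardstick and measures no error. The cause of the moves was not tested beyond each setting's own construction. The number of domains was 1316 at 4000 bp, 53 at 8000 bp and 186 with both lines broad. Domains wider in SW620 numbered 33 at 2-fold, 98 at 4000 bp and 11 at 8000 bp, and those wider in SW480 36, 155 and 10. At 8000 bp, cover in SW620 was 93.2% for H3K4me2 and 85.7% for H3K27ac, and H3K36me3 reached 29.3% in SW620 and 27.9% in SW480; at 4000 bp H3K36me3 was 9.08% and 10.1%. In the central 1000 bp, cover in SW620 and SW480 was 96.4% and 98.5% for H3K4me2, 89.4% and 97.2% for H3K27ac, and 8.09% and 7.66% for H3K36me3. Some alternatives were chosen after seeing the data. Of these, limiting domains to the 332 within 1.5-fold in width gave 92.8% and 94.3% for H3K4me2 and 84.1% and 91.9% for H3K27ac. Leaving out the 2 widest domains moved none of the 6 covers by histone marks beyond that yardstick. Leaving out domains with a neighbour moved neither share with H3K36me3 within 20 kb beyond its counting interval. FOXA2 within 5000 bp was found at 35.9% of domains in SW620 and 5.33% in SW480, and equal numbers of first-listed peaks gave 12.3% in SW620. H3K36me3 near an edge was found at 80.9% in SW480 within 10 kb, and at 85.7% in SW620 and 89.5% in SW480 within 50 kb. Of 60 alternative width ratios of 20 named domains, 57 were labelled stable. Most of these could hardly change. Division by the median width of each list used medians that were close, and merging across gaps of up to 1000 bp left each single region at its own width. Only total covered length in place of the widest region measured the 20 domains anew, and it gave all 3 exceptions. On chromosome 17 these were -0.21 against -1.44 from 46651693, and 0.25 against 0.96 from 79968188. On chromosome 22 from 46465460 the ratio was -0.009 against 0.84, where the direction reversed. Where a region of one line is divided by short gaps, its width depends on the caller's joining of windows. For H3K4me3, depth and enrichment were lower in SW620 than in SW480, and their part in the widths was not tested.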

Other observations

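H3K27ac could extend far beyond H3K4me3 at single domains, but mostly did not. The median ratio of its widest region to the H3K4me3 width was 1.07 in SW620 and 1.13 in SW480. At regions of 2 to 3 kb this ratio was 1.00 in SW620 and 1.07 in SW480. The widest overlapping H3K27ac region was 10000 bp or longer at 68 of 488 domains in SW620 (13.9%) and 79 in SW480 (16.2%), and at union regions of 2 to 3 kb at 41 of 6899 in SW620 (0.594%) and 50 in SW480 (0.725%). The longest such region at a domain measured 61493 bp in SW620 and 68179 bp in SW480. In SW620 the longest at a region of 2 to 3 kb also measured 61493 bp. For H3K4me2 the counts of domains were 88 in SW620 (18.0%) and 66 in SW480 (13.5%), so the line with more very long regions was not the same for the marks. Wide regions meet others more often by their length, and this was not corrected for here.

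On chromosome 18, adjoining domains from 46465002 to 46470586 and from 46471883 to 46479685 had H3K4me2 over 89.7% and 91.0% in SW620 and 100% and 99.6% in SW480. H3K36me3 covered neither in SW620, and 71.0% and 33.7% in SW480. H3K27ac covered 22.6% and 23.4% in SW620 and 100% of both in SW480. The first had no H3K4me3 region in SW620 and one of 5585 bp in SW480, and the second measured 5033 bp in SW620 and 7803 bp in SW480. These domains were chosen after their values were seen.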
